A study of Homo sapiens with 12 samples.

Results

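The genes described here are 39 genes of the G2 phase, mitotic entry and mitosis, chosen by name for their known roles, with earlier results of these data known, among 56537 gene names in a hypoxia time course of HCT116 cells. The level of a gene was the sum of the FPKM (fragments per kilobase of transcript, scaled to the mapped fragments of the library) of its transcripts that either matched a reference model (class code =) or shared a splice junction with one (class code j). All 39 genes passed the filter on low values (a summed FPKM above 0.5 in at least 3 libraries) among 16680 genes that did so. HCT116 is a long-established line of human colorectal carcinoma cells. Cells at 0 h were kept in 21% oxygen, and hypoxic cells were held in 1% O2 for 1, 2 or 24 h from 24 h after plating, with no other treatment. Poly(A) RNA was sequenced from 3 replicates at each of the 4 time points, giving 12 libraries. The sources used here do not say that the 0 h and 24 h cells were harvested at the same time after plating, so an effect of 24 h in low oxygen and one of a longer culture cannot be told apart. The study calls its replicates biological, and p-values measure the spread between them.

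Mitotic entry is driven by the kinase CDK1 bound to cyclin A or cyclin B, whose genes are transcribed late in the cell cycle together with those of the mitotic kinases, kinetochore proteins, spindle motors and cytokinesis factors. In arrested or non-cycling cells this programme is held down by the DREAM complex, and in cycling cells it is switched on by B-MYB and FOXM1 acting with the MuvB core at a short promoter element, the CHR (cell cycle genes homology region). Mitotic exit follows when the anaphase-promoting complex, a ubiquitin ligase activated by CDC20, marks cyclin B and securin for destruction. In bulk RNA, fewer cells in G2 and mitosis and less of the RNA in each such cell cannot be told apart. The study also profiled the cell cycle by flow cytometry, and those measurements were not analysed here.

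All 6 genes fixed as a check of the treatment (CA9, VEGFA, BNIP3, SLC2A1, PDK1 and EGLN3) were higher at 24 h than at 0 h, with a median log2 fold change of 3.05. The epithelial markers EPCAM, CDH1, KRT8, KRT18, KRT19 and CLDN4 were expressed throughout, and their summed level was 2034 to 2857 FPKM at 0 h, 2110 to 2457 at 1 h, 2105 to 2416 at 2 h and 2595 to 2888 at 24 h. Of these 6 genes CDH1 (log2 fold change 1.76), CLDN4 (1.60) and KRT19 (0.99) rose at 24 h against 0 h. Of 6 markers of blood, endothelial and connective tissue cells, PECAM1 and LUM were listed at 0 in every library, and PTPRC, COL1A2 and CD3E did not exceed 0.0301 FPKM. The remaining marker, COL1A1, a fibrillar collagen, rose at 24 h (log2 fold change 1.59) and made up the summed level of this list, which was 1.79 to 2.16 FPKM at 0 h, 1.58 to 2.39 at 1 h, 1.94 to 2.48 at 2 h and 5.75 to 8.79 at 24 h. The part of these shifts in the results was not tested.

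At 24 h the log2 fold change was below 0 in 30 of the 39 mitotic genes (76.9%, against 52.8% of all genes tested), by modest amounts, and fewer passed the test. In what follows a gene "fell" or "rose" when its adjusted p (limma, Benjamini-Hochberg over all 16680 genes, two-sided) was under 0.05, and it was "called" when the change was also over 2-fold and the adjusted p under 0.01. Between 0 h and 24 h, 19 of the 39 genes fell (48.7%), against 30.3% of all genes tested, and 2 rose (5.13%), against 25% of all genes tested. The median log2 fold change of the 39 genes was -0.30, and that of all genes was -0.05. Only 3 of the 39 were called lower (7.69%, against 9.51% of all genes), namely cyclin B1 (CCNB1) and the kinetochore genes SPC25 and ZWINT, and 0 were called higher, against 8.76% of all genes. All 3 libraries at 24 h lay below all 3 at 0 h for 23 of the 39 genes (59.0%, against 32.8% of all genes), and above them for 3 (7.69%, against 27.6%). With 3 libraries against 3, an exact permutation test of a single gene cannot go below p = 0.1, so the fit across all genes carries the test.

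**Figure D1:**
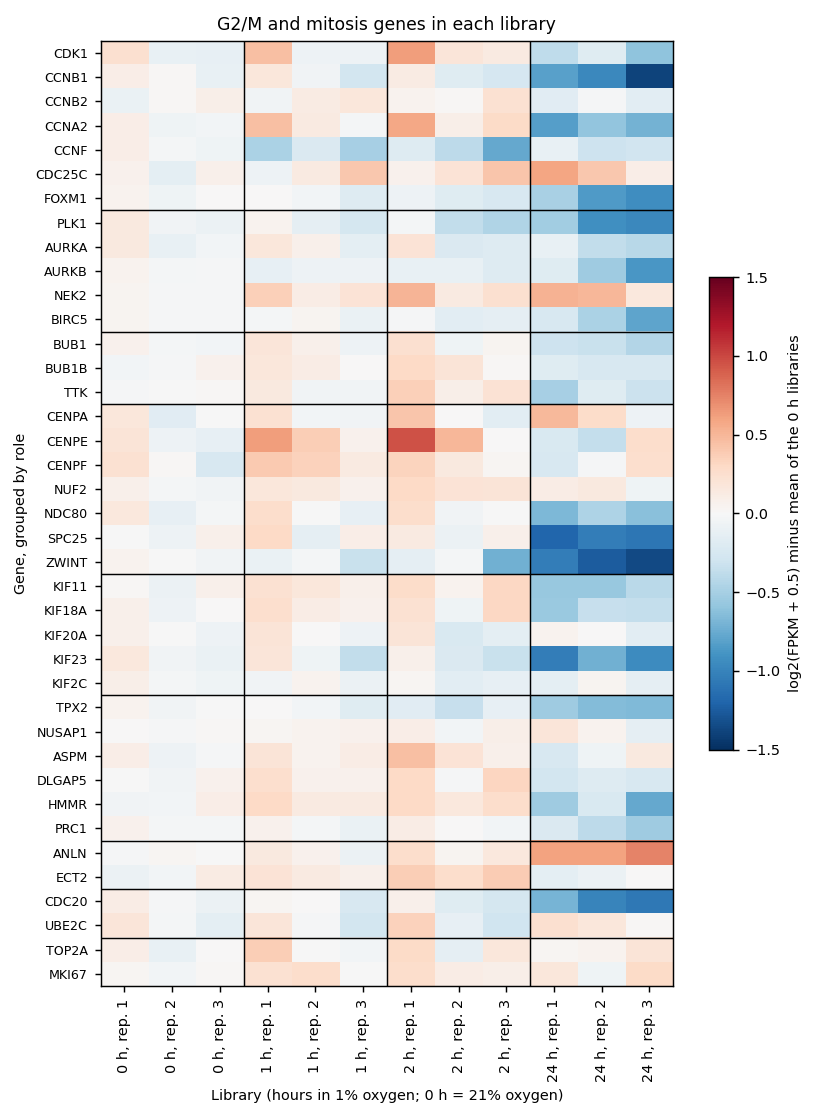
Each row is a gene, each column a library, and the colour is log2(FPKM + 0.5) minus the mean of the 3 libraries at 0 h, with black lines between roles and between time points. The 24 h columns are mostly blue, with CCNB1, SPC25 and ZWINT the darkest rows, while ANLN is red in all 3 of them.

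In each 24 h library 29 of the 39 genes lay below their 0 h mean, and the median of the 39 relative to that mean was -0.24, -0.24 and -0.33 on the log2 scale. The genes that did not fall included some of the most used markers of dividing cells. MKI67, TOP2A, UBE2C, NUSAP1 and KIF20A at 24 h overlapped their 0 h values. Under another scaling (TPM, in which each library is set to the same total, over transcripts of all lengths) the median of all genes itself moved to -0.78, all 39 genes had negative values, 12 were called lower (against 27.5% of all genes) and the 2 genes that rose (ANLN and NEK2) turned to -0.22 and -0.46. Those values are still above the median of all genes on that scale. TPM over transcripts of at least 300 bases gave 22 genes that fell (31.9% of all genes did) and 2 that rose (20.2% of all). A median-of-ratios scaling gave 17 that fell (27.6% of all) and 3 that rose (27.3% of all).

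**Figure D2:**
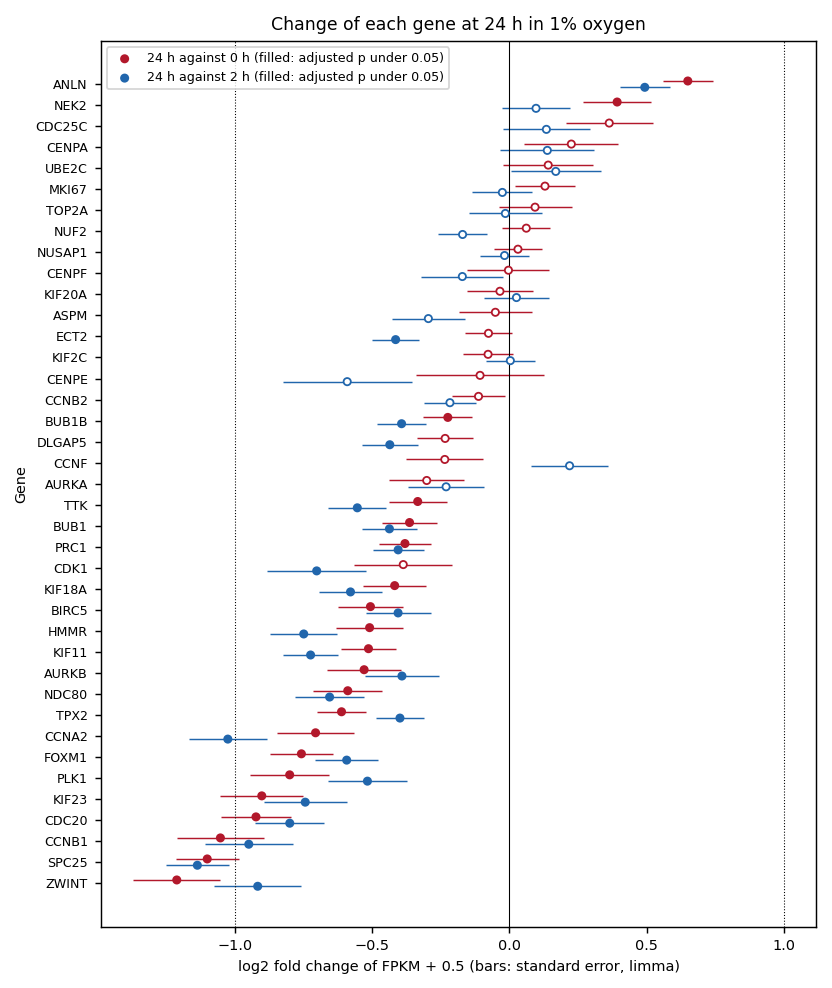
Points are log2 fold changes of FPKM + 0.5 for 24 h against 0 h (red) and against 2 h (blue), with standard errors from limma as bars, sorted by the first comparison. Filled points have an adjusted p under 0.05, and the dotted lines mark a 2-fold change. ZWINT lies lowest at -1.21 and ANLN highest at 0.65 against 0 h.

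Promoters were searched for the letters of the CHR because its binders control many of these genes. RefSeq promoter sequences (GRCh38.p14, from 250 bases before to 50 after each start) were matched by symbol for 33 of the 39 genes, with 40 promoters. The CHR letters TTTGAA, on either strand, were present in 29 of these 40 promoters (72.5%) and in 15.2% of all 35116 promoters of that length. The variant TTTAAA was present in 12 (30%, against 12.2% of all), and the letters CCAAT, the core of the element bound by NF-Y, in 31 (77.5%, against 34.6%). The motifs were searched separately, so matches of different motifs can share bases. In 18 of the 33 genes TTTGAA lay within the last 100 bases before the start. CCNA2 held neither TTTGAA nor TTTAAA in its promoter and has no window here. The windows below are 30 bases each, read on the strand of the gene, with the motif in capitals. They show the match on that strand nearest upstream of the start, in chosen genes of the CDK1 axis that held one and in TOP2A.
CDK1 (chr10:60778453-60778482, + strand): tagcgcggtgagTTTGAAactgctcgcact
CCNB1 (chr5:69167108-69167137, + strand): agcagtgcggggTTTAAAtctgaggctagg
CCNB2 (chr15:59105105-59105134, + strand): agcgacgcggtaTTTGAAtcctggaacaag
PLK1 (chr16:23678848-23678877, + strand): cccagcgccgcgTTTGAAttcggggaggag
CDC25C (chr5:138331817-138331846, - strand): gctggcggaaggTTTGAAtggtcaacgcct
CDC20 (chr1:43358904-43358933, + strand): cgacggttggatTTTGAAggagccaatagg
TOP2A (chr17:40418073-40418102, - strand): cgagtggtgcctTTTGAAgcctctctagtc

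The capitals began 13 bases before the start in CDK1, 29 in CCNB2 and PLK1, 30 in CCNB1 and CDC25C, 65 in CDC20 and 194 in TOP2A, which also held the letters on the other strand nearer to the start. In another promoter of CDC25C TTTGAA began 44 bases after the start. Genes shown with these letters differed at 24 h. PLK1 and CDC20 fell, whereas CDK1, CCNB2, CDC25C and TOP2A neither fell nor rose against 0 h. Of the 25 genes whose promoters held TTTGAA 11 fell, and of the 8 without it 4 fell. CCNB1, shown with TTTAAA, was called lower, and of the 12 genes with TTTAAA 3 fell, and of the 21 without it 12. Of the 27 genes with CCAAT 13 fell, and of the 6 without it 2. None of these differences was tested. A match of letters is a description and does not show that the element is used.

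Among the 7 genes of mitotic entry, the cyclins moved apart. CCNB1, the activating subunit of CDK1 at mitosis and the most abundant of the 39 at 0 h, was at 351, 331 and 302 FPKM at 0 h, 367, 316 and 271 at 1 h, 358, 288 and 275 at 2 h, and 187, 168 and 125 at 24 h. The groups at 0 h and 24 h were well apart, and the mean was 2.05-fold lower at 24 h (log2 fold change -1.05 ± 0.16 (SE), adjusted p = 0.000149). Without the third 24 h library the value was -0.89, under the 2-fold limit, and under median-of-ratios scaling it was -0.99. CCNB2, the other mitotic B-type cyclin, was at 63.9, 69.8 and 72.9 FPKM at 0 h, 66.4, 74.8 and 77.5 at 1 h, 71.6, 69.9 and 80.8 at 2 h, and 61.1, 68.1 and 61.7 at 24 h. Its groups overlapped (log2 fold change -0.11 ± 0.10 (SE), adjusted p = 0.341). As a description of these values, the ratio of CCNB1 to CCNB2 at 0, 1, 2 and 24 h was 4.79 ± 0.672 (SD, n = 3), 4.42 ± 1.03, 4.17 ± 0.801 and 2.51 ± 0.517, with no overlap between 0 h and 24 h.

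CDK1, the kinase itself, was at 158, 124 and 122 FPKM at 0 h, 184, 127 and 127 at 1 h, 206, 152 and 147 at 2 h, and 102, 118 and 88.1 at 24 h. Every 24 h library was below every 0 h library, but the change did not pass the test (log2 fold change -0.39 ± 0.18 (SE), adjusted p = 0.0859). CCNA2, which partners CDK2 and CDK1 in S and G2, fell from 75.9, 68.0 and 69.1 FPKM at 0 h to 39.9, 46.9 and 43.2 at 24 h (log2 fold change -0.71, adjusted p = 0.0011), after 97.1, 78.0 and 69.5 at 1 h and 106, 75.7 and 86.5 at 2 h. FOXM1, the transcription factor that drives much of this programme, was at 48.6, 44.9 and 47.1 FPKM at 0 h, 47.1, 45.6 and 40.8 at 1 h, 44.4, 41.4 and 39.7 at 2 h, and 33.2, 25.7 and 24.4 at 24 h. It fell without overlap (log2 fold change -0.76 ± 0.12 (SE), adjusted p = 0.000151). CCNF, a substrate receptor of the SCF ubiquitin ligase, was at 24.8 ± 1.48, 18.8 ± 2.07, 18.2 ± 3.65 and 21.0 ± 1.63 FPKM (SD, n = 3) at 0, 1, 2 and 24 h. Every library at 1, 2 and 24 h lay below every 0 h library, but CCNF did not pass the test at any time. CDC25C, the phosphatase that removes inhibitory phosphates from CDK1, was at 9.71 ± 0.847 FPKM at 0 h and 12.7 ± 2.24 at 24 h, with all 24 h libraries above the 0 h ones but an adjusted p of 0.0691.

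The kinases of mitosis also did not move together. PLK1, which acts in mitotic entry, centrosome maturation and cytokinesis, was at 113, 98.7 and 96.7 FPKM at 0 h, 106, 93.7 and 85.3 at 1 h, 100.4, 79.6 and 74.9 at 2 h, and 71.5, 54.1 and 52.4 at 24 h. It fell without overlap (log2 fold change -0.80 ± 0.14 (SE), adjusted p = 0.000543). AURKA, the centrosomal Aurora kinase, was at 79.4, 66.5 and 69.8 FPKM at 0 h, 80.9, 75.3 and 64.5 at 1 h, 82.9, 61.4 and 62.4 at 2 h, and 66.2, 55.2 and 53.6 at 24 h. The difference did not pass the test (log2 fold change -0.30 ± 0.14 (SE), adjusted p = 0.0806), although the highest 24 h library lay just under the lowest 0 h library. The chromosomal passenger genes AURKB and BIRC5 (survivin) both fell, from 84.1 ± 2.84 to 59.2 ± 14.1 FPKM (SD, n = 3) and from 122 ± 2.60 to 86.6 ± 16.4. Their spread at 24 h was wider than at 0 h. NEK2, a kinase of centrosome separation, rose from 36.4, 34.9 and 35.1 FPKM at 0 h to 51.0, 50.3 and 39.6 at 24 h (log2 fold change 0.39, adjusted p = 0.0178), and its means at 1 h and 2 h lay between, at 41.7 and 43.9 FPKM. The rise of NEK2 did not pass the test without the second 0 h library (adjusted p = 0.052, limma) or without the first or the second 24 h library (0.0599 and 0.0651).

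The 3 spindle checkpoint genes among the 39, whose products delay anaphase until chromosomes are attached, fell (30.3% of all genes did). BUB1 was at 69.9, 65.6 and 65.2 FPKM at 0 h, 75.9, 70.3 and 63.5 at 1 h, 79.1, 64.0 and 68.8 at 2 h, and 53.8, 52.9 and 49.0 at 24 h (log2 fold change -0.36, adjusted p = 0.00799). BUB1B, which encodes the pseudokinase BUBR1, was at 53.8, 55.1 and 57.9 FPKM at 0 h, 62.4, 60.0 and 55.7 at 1 h, 68.3, 63.7 and 56.1 at 2 h, and 48.8, 46.9 and 46.8 at 24 h. In both genes the 24 h libraries lay below all the others. The change in BUB1B was at the limit of the test (log2 fold change -0.22, adjusted p = 0.0498) and was no longer past it when any single 0 h or 24 h library was left out, or under median-of-ratios scaling. TTK, the kinase MPS1 that starts checkpoint signalling, fell from 36.6 ± 0.5 to 29.1 ± 3.15 FPKM (SD, n = 3; log2 fold change -0.33, adjusted p = 0.0175), which did not pass the test without the first 24 h library or under median-of-ratios scaling. The checkpoint genes MAD2L1, BUB3 and MAD1L1, not among the 39, also fell (log2 fold changes -0.83, -0.66 and -0.40). Of other checkpoint genes outside the 39, ZW10 and ZWILCH fell (-1.32 and -1.49), whereas KNTC1 and CASC5 did not pass the test (-0.004 and -0.009).

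Genes of the kinetochore, which couples chromosomes to microtubules, moved by unequal amounts. ZWINT, which links the kinetochore to the RZZ checkpoint complex, was at 99.4, 95.1 and 92.2 FPKM at 0 h, 88.9, 93.5 and 75.7 at 1 h, 86.8, 93.5 and 57.9 at 2 h, and 46.2, 39.9 and 37.2 at 24 h. Its 24 h mean was 2.33-fold lower (log2 fold change -1.21 ± 0.16 (SE), adjusted p = 5.04e-05), the largest change among the 39 genes in this fit. SPC25, NDC80 and NUF2 encode subunits of the 4-part NDC80 complex, the main microtubule binder of the kinetochore, and their values in every library are given because they differ, which was seen before they were chosen. SPC25 was at 36.7, 34.8 and 38.9 FPKM at 0 h, 45.2, 33.4 and 39.3 at 1 h, 40.3, 34.4 and 38.6 at 2 h, and 15.9, 17.7 and 17.1 at 24 h (2.18-fold lower, log2 fold change -1.10 ± 0.11 (SE), adjusted p = 8.93e-06). NDC80 fell less, from 42.2, 34.8 and 37.1 FPKM at 0 h to 23.5, 27.3 and 24.5 at 24 h (log2 fold change -0.59, adjusted p = 0.00177). NUF2 was at 32.6, 30 and 29.8 FPKM at 0 h, 34.8, 34.2 and 32.2 at 1 h, 37.9, 35.6 and 35.3 at 2 h, and 33.2, 34.0 and 29.3 at 24 h. Its 0 h and 24 h groups overlapped (log2 fold change 0.06 ± 0.09 (SE), adjusted p = 0.58). The fourth subunit, SPC24, which is not among the 39 genes, was at 14.2, 16.1 and 15.7 FPKM at 0 h and 13.6, 11.2 and 11.4 at 24 h (log2 fold change -0.33, adjusted p = 0.0513).

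Within libraries, the ratio of SPC25 to NUF2 at 0, 1, 2 and 24 h was 1.2 ± 0.0962 (SD, n = 3), 1.17 ± 0.169, 1.04 ± 0.0668 and 0.527 ± 0.0520. The ratio of NDC80 to NUF2 went from 1.23 ± 0.0685 to 0.782 ± 0.0654 between 0 h and 24 h, and that of SPC24 to NUF2 from 0.5 ± 0.0563 to 0.376 ± 0.0416. A ratio within a library does not move with its scaling, and it shows unequal change of the 2 genes, not which of them changed. The 3 CENP genes among the 39 did not pass the test. CENPA, the centromeric histone H3 variant, was at 26.4 ± 3.12 FPKM at 0 h and 31.2 ± 6.06 at 24 h, and CENPE, a kinetochore kinesin and the least abundant of the 39 at 0 h, at 8.19 ± 1.03 and 7.67 ± 1.92. CENPF, a large kinetochore and nuclear matrix protein, was at 39.7, 34.2 and 28.6 FPKM at 0 h, 44.6, 43.2 and 37.3 at 1 h, 42.8, 37.5 and 34.4 at 2 h, and 28.6, 33.4 and 40.3 at 24 h, and had the smallest difference of the 39 genes (adjusted p = 0.987). The groups of all 3 genes overlapped.

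Of the 5 kinesin motors, KIF23, KIF11 and KIF18A fell. KIF23 (MKLP1), the motor of the centralspindlin complex at the cell midzone, was at 70.7, 60.8 and 59.0 FPKM at 0 h, 71.8, 60.8 and 49.1 at 1 h, 66.6, 54.6 and 50.1 at 2 h, and 30.5, 38.4 and 32.6 at 24 h (log2 fold change -0.90 ± 0.15 (SE), adjusted p = 0.00031). Its centralspindlin partner RACGAP1, not among the 39 genes, did not pass the test (log2 fold change -0.20, adjusted p = 0.164), and the ratio of KIF23 to RACGAP1 was 0.716 ± 0.0456 (SD, n = 3) at 0 h and 0.444 ± 0.0834 at 24 h. KIF11 (Eg5), which pushes spindle poles apart, fell from 27.4 ± 1.61 to 19.0 ± 1.31 FPKM, and KIF18A, which dampens chromosome oscillations, from 21.6 ± 1.15 to 16.1 ± 1.31. KIF20A, a midzone motor, was at 49.4, 46.8 and 44.5 FPKM at 0 h, 53.5, 47.0 and 44.2 at 1 h, 53.6, 39.8 and 42.4 at 2 h, and 48.5, 47.0 and 41.9 at 24 h, so that the groups overlapped. The microtubule depolymerase KIF2C was at 58.9 ± 3.30 FPKM at 0 h and 55.9 ± 4.21 at 24 h, also overlapping.

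TPX2, HMMR and PRC1 fell among the 6 genes of spindle assembly and microtubule binding. TPX2, the activator of AURKA on the spindle, was at 130, 120 and 124 FPKM at 0 h, 125, 121 and 110 at 1 h, 111, 98.1 and 114 at 2 h, and 86.3, 79.4 and 78.7 at 24 h (log2 fold change -0.61 ± 0.09 (SE), adjusted p = 0.000104). NUSAP1, which bundles microtubules near chromatin, was at 114, 112 and 116 FPKM at 0 h, 117, 119 and 119 at 1 h, 122, 110 and 122 at 2 h, and 129, 118 and 104 at 24 h, with the 0 h values inside the range at 24 h. HMMR, the spindle protein RHAMM, fell from 63.5 ± 3.8 to 44.9 ± 8.47 FPKM (SD, n = 3), and PRC1, which crosslinks the central spindle, from 116 ± 4.42 to 89.1 ± 9.64. ASPM, a spindle pole protein, was at 9.17 ± 0.625 FPKM at 0 h and 8.88 ± 1.29 at 24 h. DLGAP5 (HURP), which stabilises kinetochore fibres, was at 55.0 ± 2.19 and 46.7 ± 1.48 FPKM, with no overlap but an adjusted p of 0.0713.

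Cytokinesis held the clearest rise. ANLN (anillin), the scaffold of the contractile ring, was at 70.5, 72.8 and 71.5 FPKM at 0 h, 79.4, 74.7 and 67.1 at 1 h, 86.2, 73.7 and 80.1 at 2 h, and 109, 109 and 120 at 24 h. All 24 h libraries lay above all others (log2 fold change 0.65 ± 0.09 (SE), adjusted p = 8.16e-05), a change that under TPM over all transcripts was -0.22 against a median of all genes of -0.78. ECT2, the exchange factor that activates RhoA at the cleavage site, was at 56.7, 58.5 and 65.8 FPKM at 0 h, 69.6, 66.3 and 63.5 at 1 h, 78.1, 72.3 and 78.6 at 2 h, and 54.4, 56.8 and 60.3 at 24 h. It overlapped between 0 h and 24 h, and the 2 h libraries were the highest.

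Of the 2 genes of the anaphase-promoting complex machinery, CDC20 fell and UBE2C did not. CDC20, its mitotic activator, was at 238, 216 and 206 FPKM at 0 h, 224, 220.1 and 185 at 1 h, 232, 194 and 183 at 2 h, and 135, 110.2 and 104 at 24 h (log2 fold change -0.92 ± 0.13 (SE), adjusted p = 6.7e-05). UBE2C, the ubiquitin-conjugating enzyme that works with it, was at 229.5, 199 and 182 FPKM at 0 h, 229, 200 and 168 at 1 h, 257, 186 and 164 at 2 h, and 239, 228 and 205 at 24 h, and its groups overlapped (log2 fold change 0.14 ± 0.16 (SE), adjusted p = 0.487). Both genes of chromosome structure also overlapped. TOP2A, the topoisomerase that untangles sister chromatids, was at 63.8, 54.9 and 59.8 FPKM at 0 h, 77.1, 59.0 and 57.6 at 1 h, 72.5, 54.2 and 66.9 at 2 h, and 60.5, 61.8 and 68.1 at 24 h. MKI67, which encodes the proliferation marker Ki-67, a coat of mitotic chromosomes, was at 42.8, 40.8 and 42.5 FPKM at 0 h, 49.5, 50.7 and 42.0 at 1 h, 50.7, 45.4 and 44.7 at 2 h, and 47.3, 40.0 and 51.6 at 24 h (log2 fold change 0.13 ± 0.11 (SE), adjusted p = 0.337). Its sum depended on which transcripts entered, and with class code = alone, which leaves out its class j transcripts, it fell (log2 fold change -0.74, adjusted p = 0.00203).

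**Figure D3:**
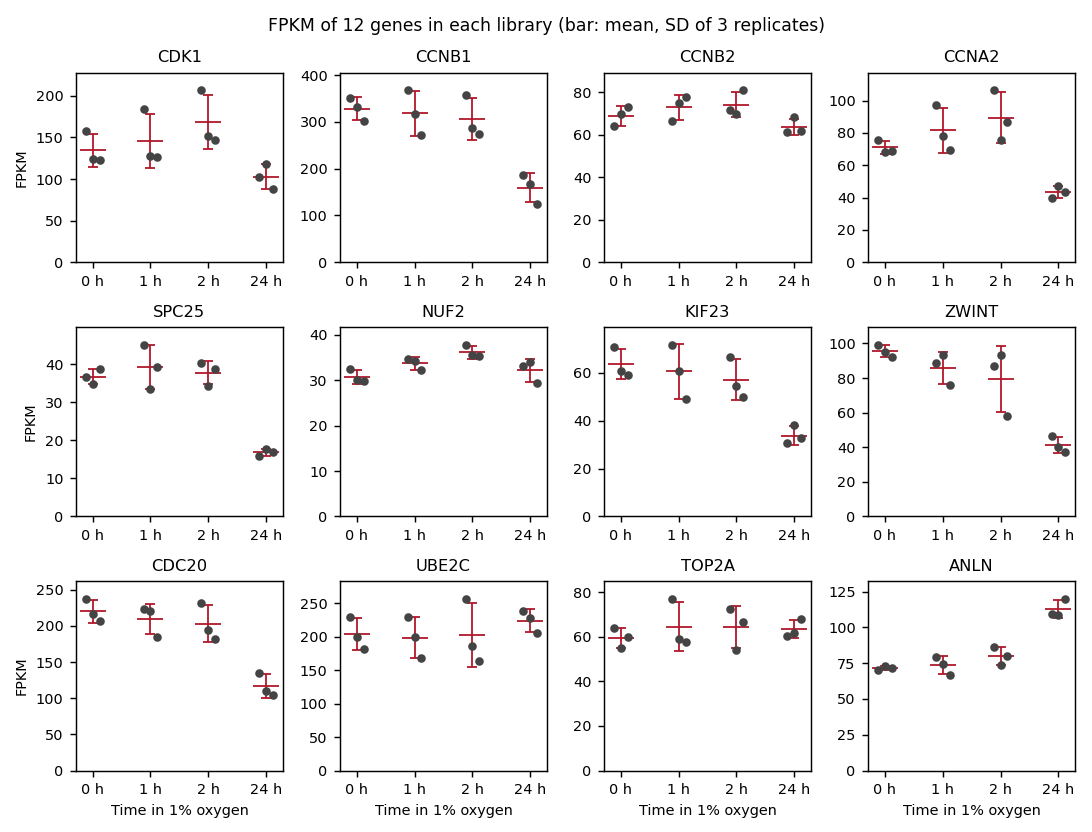
Each panel gives the FPKM of a gene (y axis from 0) at 0, 1, 2 and 24 h in 1% oxygen, with a point per library and the mean and SD of 3 replicates in red. SPC25 is at 15.9 to 17.7 FPKM at 24 h and at 33.4 or more in every earlier library, while NUF2 of the same complex stays between 29.3 and 37.9.

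At 1 h and 2 h none of the 39 genes fell, rose or was called against 0 h by limma, and the smallest adjusted p was 0.996 at 1 h and 0.123 at 2 h. Over all genes these comparisons also gave few results, with 0.006% of genes past an adjusted p of 0.05 at 1 h and 0.312% at 2 h, and 0.006% and 0.018% called. At an unadjusted p under 0.05 there were 1 and 6 of the 39 genes, against 4.61% and 15.3% of all genes. The median log2 fold change of the 39 was 0.05 at 1 h and 0.09 at 2 h. Leaving out 1 library at a time moved it between -0.019 (without the first 1 h library) and 0.098 (without the third) at 1 h, and between 0.019 (without the first 2 h library) and 0.142 (without the first 0 h library) at 2 h. The first libraries at 1 h and 2 h stood highest, with medians of 0.18 and 0.24 relative to the 0 h mean, whereas the other 4 libraries at these times were between -0.06 and 0.05. CENPE had the largest positive value at 2 h (log2 fold change 0.48), with 16.2, 11.7 and 8.18 FPKM against 9.37, 7.72 and 7.47 at 0 h, and CCNF the most negative (-0.45). Neither passed the test.

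The comparison of 24 h with 2 h sets means without the 0 h libraries against each other, but its spread was estimated from all 12 libraries. It shares the 24 h libraries with the one above. In it 22 genes fell (56.4%, against 27.4% of all genes) and ANLN rose (2.56%, against 23.2%). The 19 genes that fell against 0 h all fell here too, and the other 3 were CDK1, DLGAP5 and ECT2. CDK1 had a log2 fold change of -0.70 (adjusted p = 0.00608), DLGAP5 of -0.44 (adjusted p = 0.00377) and ECT2 of -0.41 (adjusted p = 0.00175). The 2 genes called lower were CCNA2 at -1.03 and SPC25 at -1.14 (5.13%, against 7.28% of all genes), and 0 were called higher, against 7.44%. Without the first 2 h library, which stood high, 1 gene was called lower, and without the third 4 were. Median-of-ratios scaling left 1 gene called lower, and TPM over all transcripts 0. NEK2 did not pass the test against 2 h (log2 fold change 0.10, adjusted p = 0.543).

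Other genes of the same processes, taken from lists of known members, are given beside the 39 at 24 h against 0 h. Their counts are to be read against the shares of all genes, of which 30.3% fell, 25% rose, 9.51% were called lower and 8.76% called higher. Of 32 further genes of the kinetochore, centromere and chromosomal passenger complex 22 fell (68.8%), 0 rose and 9 were called lower (28.1%), with a median log2 fold change of -0.75. The largest drop among them was in SKA3, a subunit of the SKA complex that stabilises kinetochore attachments, from 38.3, 33.8 and 31.1 FPKM to 11.8, 9.90 and 9.72 (log2 fold change -1.67, adjusted p = 2.28e-06), followed by CENPM, a subunit of the centromere-associated network, at -1.62. Of 24 further spindle, kinesin and cytokinesis genes 11 fell (45.8%) and 1 rose, with a median of -0.29. The riser was CIT (citron kinase), which binds anillin at the midbody and went from 5.96, 6.48 and 6.37 to 9.76, 11.2 and 13.1 FPKM (log2 fold change 0.80, adjusted p = 0.000272), and is named although it was not called. Of 14 condensin, cohesin-release and separase genes 7 fell (50%) and 0 rose, none of them called, with a median of -0.30.

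In a list of genes around CDK1, 6 of 12 fell (50%) and 1 rose, with a median of -0.25. It held phosphatases, inhibitory kinases and activators of CDK1. It also held MASTL, ENSA, ARPP19 and PPP2R2D, which are none of these, and of which MASTL, ENSA and ARPP19 fell. The 2 called lower were CDC25A, the phosphatase that also acts at the start of S phase, from 19.0, 22.0 and 19.4 FPKM to 4.94, 3.17 and 3.52 (log2 fold change -2.25), and PKMYT1, a kinase that inhibits CDK1 (-1.66). They act on CDK1 in opposite directions. WEE1, the other inhibitory kinase, had a log2 fold change of -0.18 (adjusted p = 0.279), and CDC25B rose by 0.50 (adjusted p = 0.0461). Of 17 genes of the anaphase-promoting complex and its partners 12 fell (70.6%) and 1 rose, with a median of -0.50. Besides subunits and an inhibitor they included the activator FZR1 and the enzyme UBE2S, which did not pass the test. ANAPC13 was called lower at -1.01, and ANAPC16 was the one that rose, at 0.87. Among 12 genes of the DREAM and MuvB complexes, which are known for acting on cell cycle promoters, 6 fell (50%) and 2 rose (16.7%). Both pocket proteins of DREAM were called, in opposite directions. RBL1 (p107) went from 6.83, 7.56 and 8.13 FPKM to 2.30, 2.18 and 2.96 (log2 fold change -1.43), and RBL2 (p130), the pocket protein of resting cells, from 6.65, 6.5 and 7.35 to 12.3, 14.4 and 21.0 (log2 fold change 1.13, adjusted p = 0.000481). MYBL2 (B-MYB), the activating partner of MuvB, was called lower at -1.29. Of the 2 dimerisation partners of E2F proteins in the list, TFDP1 was called lower, from 171, 150 and 152 FPKM to 90.2, 78.5 and 67.7 (adjusted p = 1.86e-05), and the less abundant TFDP2 was called higher, from 11.1, 11.9 and 15.0 to 26.1, 27.5 and 25.4 (1.04).

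Among p53 targets and G2 arrest genes 6 of 13 tested genes rose (46.2%), 5 of them called, and 0 fell, with a median of 0.38. The largest change was in CCNG2, an atypical cyclin linked to cell cycle arrest, from 1.21, 2.74 and 4.31 FPKM to 71.6, 75.5 and 69.8 (log2 fold change 4.61, adjusted p = 4.07e-06). CDKN1A (p21), the CDK inhibitor through which p53 engages DREAM, went from 54.0, 64.5 and 67.0 to 185, 157 and 188 (log2 fold change 1.51). All 23 genes of DNA replication and S phase fell, 18 of them called, with a median of -1.46 and a range from -2.48 in CCNE2 to -0.34. The median of the 39 mitotic genes was -0.30, and no difference between the lists was tested.

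**Figure D4:**
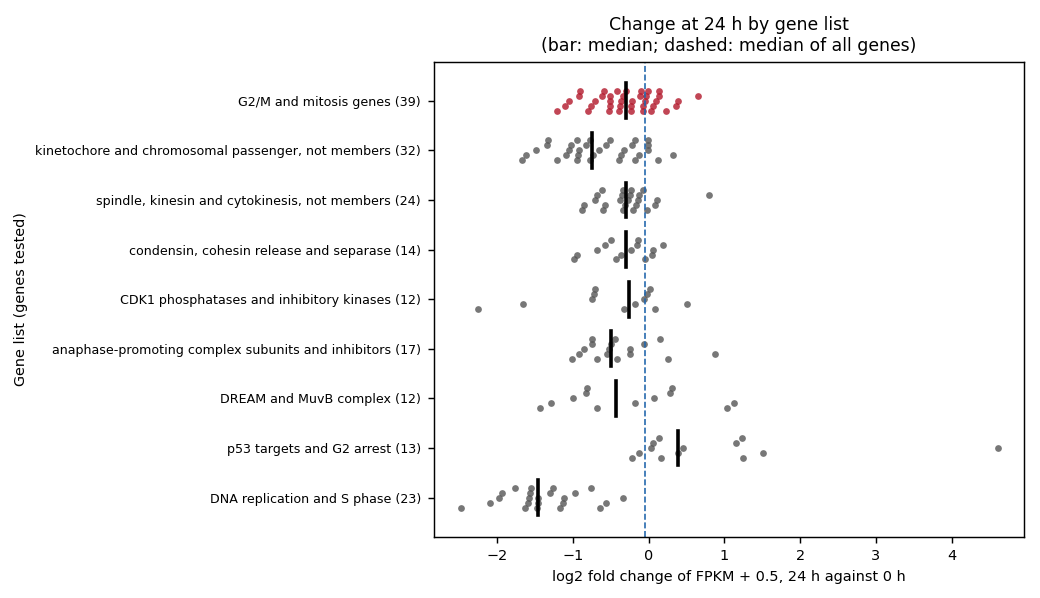
Each point is the log2 fold change of a gene at 24 h against 0 h, in the 39 G2/M and mitosis genes (red) and in 8 other lists (grey), with the list median as a black bar and the median of all genes tested, -0.05, as a dashed line. The S phase list lies lowest, with a median of -1.46, and the p53 and G2 arrest list is the only one shown with a median above 0, at 0.38.

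Transcripts were examined because a gene's sum can hide changes among its forms. The FPKM of transcripts of a gene are estimates made from reads that they partly share, so a gain in one can be tied to a loss in another. The 39 genes had 412 transcripts in the table, of which 220 passed an FPKM of 0.5 in at least 3 libraries, between 1 and 17 per gene with a median of 5. By the annotation 146 of them were coding, 62 noncoding (36 retained intron, 9 subject to nonsense-mediated decay, 17 without a defined coding sequence) and 12 had no type. At 24 h against 0 h 17 transcripts were called lower (7.73%, against 6.49% of all 62162 transcripts) and 4 higher (1.82%, against 5%), in 13 genes. Of these 18 were coding, 2 noncoding and 1 without a type. The transcript with the highest mean was coding at 0 h and at 24 h in 38 genes, and that of PRC1 had no type. For CCNB1 it was ENST00000506572, which kept its share of the gene, at 64.1 ± 1.47% (SD, n = 3) at 0 h and 64.8 ± 1.27% at 24 h, while its FPKM fell with the gene (log2 fold change -1.04).

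A different transcript was highest at 24 h than at 0 h in 6 genes (ASPM, AURKB, CENPE, ECT2, KIF23 and MKI67), and in KIF23 and MKI67 all 3 libraries at each time had the same one on top. In KIF23 the share of ENST00000559279 was 52.0, 55.9 and 55.6% at 0 h, 53.4, 52.7 and 46.8% at 1 h, 46.0, 49.7 and 45.4% at 2 h, and 15.8, 18.3 and 25.8% at 24 h. The share of ENST00000260363 went the other way, with 15.0, 14.4 and 17.2% at 0 h, 16.8, 19.9 and 24.5% at 1 h, 29.1, 21.4 and 30.1% at 2 h, and 56.5, 42.4 and 47.5% at 24 h. Its 2 h values already lay above those at 0 h. On the FPKM scale the first transcript was called lower, from 34.3 ± 2.01 to 6.42 ± 1.75 (log2 fold change -2.36, adjusted p = 3.79e-05), and the second rose from 9.77 ± 0.968 to 15.5 ± 0.739 (log2 fold change 0.64, adjusted p = 0.0136). A further form, ENST00000537891, was also called lower, with means of 11.1 and 4.71 FPKM. The sum of KIF23 thus fell while its longer form rose.

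By GENCODE on GRCh37, ENST00000260363 has 23 exons, and ENST00000559279 lacks its exons 17 (chr15:69732647-69732826, + strand, 180 bases) and 18 (chr15:69733107-69733418, + strand, 312 bases). Both lie within the coding sequence and have lengths divisible into whole codons, of 60 and 104 residues. In MKI67 the table holds 2 assembled transcripts of class j, both nearest to ENST00000368654, of 11282 and 10202 bases. The difference of 1080 bases equals the length of exon 7 of 15 of that reference (chr10:129913192-129914271, - strand), a coding exon of 360 codons that is absent from ENST00000368653. The exons of the assembled transcripts themselves were not analysed here. The KIF23 forms also differ elsewhere, since their lengths (3610 and 3351 bases) differ by less than these exons together. The first 30 bases of each of these exons are given on the strand of the gene to identify them.
KIF23 exon 17: gagcgtagagtggcagccaaacagctggag
KIF23 exon 18: ctttctagtaactatattgctcagatttcc
MKI67 exon 7: atgagaaagctcaagattccaaggcctatt

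The longer assembled transcript of MKI67 was at 7.31, 9.49 and 10.2 FPKM at 0 h, 14, 14.3 and 15.3 at 1 h, 13.9, 11.9 and 17.4 at 2 h, and 25.0, 17.3 and 32.2 at 24 h, and was called higher (log2 fold change 1.38, adjusted p = 0.000974). Its share of the gene at 0, 1, 2 and 24 h was 21.4 ± 3.8% (SD, n = 3), 31.0 ± 4.68%, 30.8 ± 6.96% and 52.8 ± 9.59%, and each later time lay above 0 h in every library. ENST00000368653, without exon 7, was called lower, from 17.2, 14.4 and 14.4 to 5.63, 7.14 and 9.41 FPKM (log2 fold change -1.03, adjusted p = 0.00128), and its share went from 36.5 ± 3.31% to 16 ± 3.55%. The shorter assembled transcript did not pass the test (log2 fold change -0.53, adjusted p = 0.162), with shares of 39.3 ± 1.67% and 25.6 ± 8.66%. The groups of the summed MKI67 thus overlapped while its forms changed places. A further shift was in UBE2C, where ENST00000405520 was called higher, from 2.89 ± 1.45 to 17.6 ± 5.74 FPKM, and remained a minor form, with 1.38 ± 0.547% and 7.75 ± 2.00% of the gene.

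**Figure D5:**
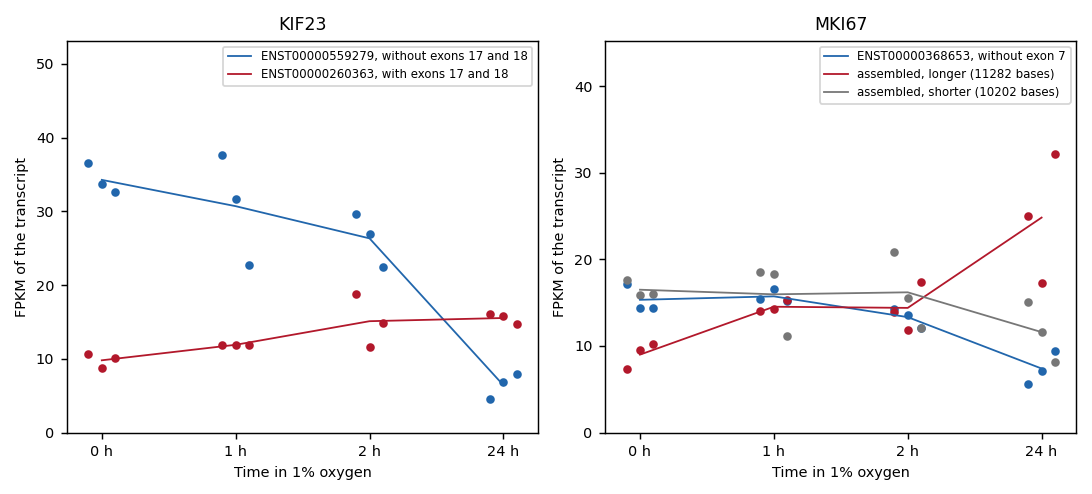
FPKM of single transcripts of KIF23 (left) and MKI67 (right) at 0, 1, 2 and 24 h in 1% oxygen, with a point per library and lines through the means of 3 replicates. In KIF23 the form without exons 17 and 18 drops to 4.50 to 7.95 FPKM at 24 h, below the form with them, and in MKI67 the longer assembled form is highest in all 3 libraries at 24 h.

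Coding and noncoding forms were compared because the study asked how hypoxia shifts the balance between them. Of the 39 genes 30 had at least 1 coding and 1 noncoding transcript, and the share of FPKM in noncoding ones changed in 2 at 24 h against 0 h (adjusted p under 0.05 over 5997 genes, limma on arcsine-transformed shares), both upwards. In all genes tested 6.59% changed upwards and 2.78% downwards. The median difference in share over the 30 genes was 0.69 percentage points, with 18 up and 12 down, and over all genes it was 0.67. In BUB1B the noncoding share was 0.883, 3.24 and 1.79% at 0 h, 7.73, 10.1 and 10.04% at 1 h, 4.65, 11.5 and 9.08% at 2 h, and 9.27, 9.23 and 13.4% at 24 h (adjusted p = 0.0145 at 24 h), so the values at 1 h were already near those at 24 h. Among its noncoding transcripts the retained-intron form ENST00000559461 was called higher, at 0.163 ± 0.144 FPKM (SD, n = 3) at 0 h and 1.38 ± 0.431 at 24 h. In PLK1 the share was 1.79, 1.63 and 0.918% at 0 h, 3.99, 1.30 and 1.94% at 1 h, 2.64, 1.70 and 1.78% at 2 h, and 7.13, 5.85 and 6.26% at 24 h (adjusted p = 0.014). The other noncoding transcript that was called, ENST00000489649 of ZWINT, which is typed as subject to nonsense-mediated decay, was lower at 24 h, with the gene. Without the first 0 h library only 1 of the 39 genes had a changed noncoding share.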

How the data were processed

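Poly(A) RNA of HCT116 cells was sequenced by the authors on stranded libraries, 3 per time point (0, 1, 2 and 24 h). Per the study's methods, reads were aligned to hg19 with MapSplice, transcripts were assembled per sample with Cufflinks and merged with Ensembl models, and the authors deposited FPKM per transcript and library. Read counts were not analysed here, so the depth behind each value is unknown and no counting interval is given; the spread between 3 replicates is the measure of precision.

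FPKM of class code = and j transcripts was summed per gene name, genes above 0.5 FPKM in at least 3 libraries were kept (16680), and log2(FPKM + 0.5) of all 12 libraries was fitted with limma 3.58.1 (lmFit, eBayes with trend) in R 4.3.3, with Benjamini-Hochberg adjustment over all genes. A fold change on this scale understates changes of low genes. The study's limits (over 2-fold, FDR under 0.01) define a call. Since the study tested counts, this fit on FPKM stands in for its test. Transcripts (62162) were fitted in the same way, and noncoding shares on the arcsine square-root scale. Transcript types came from GENCODE (lifted to GRCh37), through the nearest reference transcript. Summaries were computed with Python 3.11.15 (pandas 2.3.3, numpy 2.4.6), and plots with matplotlib 3.10.9.

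The 39 genes, the other lists and the tests were chosen with earlier results of these data known. All 39 genes are named. Values in every library were set out for CDK1, CCNB1, PLK1, AURKA, TOP2A, MKI67 and FOXM1, and for the genes with the largest and the smallest change in each role. From the other lists the called gene with the largest change in each direction was named. CCNA2, NEK2, SPC25, NDC80, NUF2, SPC24, RACGAP1, CIT, WEE1, CDC25B, MYBL2, TFDP1, TFDP2, ANAPC16, CENPM, MAD2L1, BUB3, MAD1L1, CDKN1A and PKMYT1, the ratios between genes and the transcripts of UBE2C were picked after their values were seen. The same holds for ZW10, ZWILCH, KNTC1, CASC5, MASTL, ENSA, ARPP19, PPP2R2D, FZR1 and UBE2S.

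A gene that did not pass the test is not shown to be unchanged. A marker gene chosen for the check of other cell types is not reported here, for a reason unrelated to its values.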

Additional observations from a re-analysis of the deposited data

How the results depend on the processing

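The 19 genes that fell between 0 h and 24 h numbered 17 to 23 over the alternatives tried, and the 2 that rose 0 to 3. The 23 and the 0 came from TPM over all transcripts, where the median of all genes was itself -0.78. The shares of all genes that fell or rose were not worked out on that scale. Of the 19, 17 fell under each alternative, and BUB1B and TTK did not. Of the 2 that rose, NEK2 was lost without the second 0 h or the first or second 24 h library, and both under TPM over all transcripts. By the limit of an adjusted p under 0.05 alone, the counts were 19 lower and 2 higher against 0 h, and 22 lower and 1 higher against 2 h. No member was called at 1 h or 2 h under any alternative.

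Among the alternatives, scaling moved the medians of the 39 genes most. With TPM over all transcripts, the median log2 fold change of the 39 genes was -0.57 at 1 h, -0.97 at 2 h and -1.15 at 24 h against 0 h and -0.18 at 24 h against 2 h, with 12 and 0 genes called lower at 24 h. The median of all genes moved too, to -0.56, -0.94, -0.78 and 0.12, so relative to it the 39 genes differed less from the values in the report. The summed FPKM on which this scale rests was set by short transcripts. Over transcripts of at least 300 bases the medians were -0.39 against 0 h and -0.49 against 2 h. Median-of-ratios scaling gave -0.24 against 0 h and 1 gene called lower against 2 h. All-gene calls at 24 h against 0 h were 1586 lower and 1462 higher as reported, 3995 and 209 over all transcripts, 2053 and 1384 over those of at least 300 bases, and 1379 and 1645 with median-of-ratios scaling.

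Single genes that changed sign at 24 h against 0 h were CENPE (0.27), ASPM (0.29) and MKI67 (-0.74, adjusted p = 0.00203) with class code = alone, NUF2 (-0.0194) with transcripts past the FPKM filter, and CENPF (0.0601), KIF20A (0.0293) and ASPM (0.0101) with median-of-ratios scaling. Over all transcripts these were CDC25C (-0.43), NEK2 (-0.46), CENPA (-0.61), NUF2 (-0.78), NUSAP1 (-0.83), ANLN (-0.22), UBE2C (-0.73), TOP2A (-0.76) and MKI67 (-0.72), and over those of at least 300 bases NUF2 (-0.0305) and NUSAP1 (-0.0618). The cause was not tested in any of these.

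Leaving out 1 library at a time gave a median of -0.34 to -0.25 and 2 to 4 genes called lower against 0 h, 1 to 4 called lower against 2 h, and 1 to 2 genes with a changed noncoding share. Signs changed only near 0, in CENPF (-0.129 to 0.115), KIF20A (-0.0761 to 0.0275), NUSAP1 (-0.0426 to 0.113), ASPM (-0.153 to 0.0457) and CENPE (-0.290 to 0.0168).

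When the replicate number entered as a block, 3 mitotic genes were called lower at 24 h against 0 h and 2 against 2 h. Against 0 h 21 of the mitotic genes fell and 2 rose, and 16 of their transcripts were called lower. With the block, 1607 of all 16680 genes were called lower and 1499 higher at 24 h against 0 h. Against 2 h these all-gene counts were 1227 and 1267. The shares of all genes that fell or rose, and of all transcripts called, were not worked out with the block. The 2 mitotic genes that fell only with the block against 0 h were AURKA (adjusted p = 0.00878) and CDK1 (adjusted p = 0.0197). Against 2 h 25 mitotic genes fell with the block. Deviations of same-numbered libraries correlated with a mean r of 0.154 over 18 pairs, against -0.077 over 36 other pairs. Only 1 of the 3 such pairs of 0 h with 24 h libraries exceeded 0.1, and likewise 1 of 3 for 2 h with 24 h, so the 24 h comparisons were not treated as paired. Between 0 h and 2 h all 3 were (0.13 to 0.36), a hint from the data. The block gave 0 mitotic genes that fell or rose there (smallest adjusted p = 0.0623).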
